A study of Arabidopsis thaliana with 11 samples.

Results

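The aspartate transfer RNA with anticodon GTC, tRNA-Asp(GTC), carried 5 of the 39 cytosines with a listed methylation level in nuclear tRNAs of *Arabidopsis thaliana*. They were taken as every entry named for it in the deposited methylation tables, at structural positions C38, C48, C49, C50 and C72. Structural positions follow the numbering shared by all tRNAs, in which the anticodon is at 34 to 36 and 73 is the last base before the 3′ CCA end. The levels came from RNA bisulfite sequencing (RBS-seq) of gel-purified tRNA. Bisulfite converts unmethylated cytosine to a base read as T, so that 5-methylcytosine (m5C) is the share of reads that still show C. All plants were of the Columbia ecotype. Seedlings 10 days after germination were homozygous for a T-DNA insertion in *TRDMT1* (*trdmt1*), *TRM4B* (*trm4b-1*), *TRM4A* (*trm4a*), *NSUN5* (*nsun5-2*) or *NOP2A* (*nop2a-2*, also labelled *oli2-2*), or for both *trdmt1* and *trm4b-1* (the *trdmt1 trm4b* double mutant), with 1 library each, or were wild type, with 3 libraries. Mixed flower buds carried a second insertion in *TRM4B* (*trm4b-2*) or were wild type, with 1 library each. Low expression of *NSUN5* may persist in *nsun5-2*, by the study's own account.

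The seedling wild type was deposited as the authors' mean of its 3 libraries without a spread, and the mutants and the bud wild type had 1 library each. Genotypes were therefore compared without a statistical test and without an error. In place of a replicate error, each site is set beside its range over the 5 columns whose genotype has no mutation in *TRDMT1* or *TRM4B*, namely *trm4a*, *nsun5-2*, *nop2a-2*, wild type seedlings and wild type buds. That range holds differences of genotype, tissue and experiment and is not a replicate error. The tables hold no read numbers, and how many reads stand behind a level was unknown. Every Asp(GTC) site had a level in all 9 columns, and in the whole series 25 of 39 sites did.

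In eukaryotes the m5C of tRNA is made mainly by a pair of enzyme families. TRDMT1, also called DNMT2, resembles the DNA methyltransferases and is best known for methylating C38 in the anticodon loop of aspartate tRNA. TRM4, the yeast relative of the animal enzyme NSUN2, methylates cytosines where the variable loop meets the T stem (C48, C49 and C50). Methylation there is known to stabilise tRNAs and to protect them from cleavage. In human cells C72 of cysteine and threonine tRNAs is methylated by another enzyme, NSUN6. NSUN5 and NOP2 are known as methyltransferases of ribosomal RNA.

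The sequence shows where the 5 sites are. The authors' consensus of 72 bases is printed first as DNA letters, 5′ to 3′, with the 5 listed cytosines in capitals, and then as it would be read after bisulfite if only those 5 stayed C.
Asp(GTC) consensus: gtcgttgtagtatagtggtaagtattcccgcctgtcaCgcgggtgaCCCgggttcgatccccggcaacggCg
Asp(GTC) after bisulfite: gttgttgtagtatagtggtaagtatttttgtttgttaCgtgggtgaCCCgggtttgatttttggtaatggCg
The consensus held 20 cytosines, so the listed sites were 25% of them. The 15 others had no listed level. Listing required 5 reads and a level of 20%, so no level is known for them. C38 is the last base of the anticodon loop, just before the stem, and faces C32 across the loop. C48 is the last base of the variable loop. C49 and C50 open the T stem and stand opposite G65 and G64. C72 stands opposite G1 in the first pair of the acceptor stem. In the 72-base consensus these positions are bases 38, 47, 48, 49 and 71, counted from the 5′ end.

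The consensus stands for 25 nuclear loci on TAIR10, all 72 bases long and all annotated as tRNA genes in the RefSeq gene table. Of 58 nuclear consensus sequences only 3 had more loci. Chromosome 1 held 9 of them, chromosome 5 held 7, chromosome 3 held 6, chromosome 2 held 3 and chromosome 4 held none. The first locus in the authors' list is AT1G03515 (chr1:877648-877719). The closest neighbours were AT2G33650 (chr2:14243131-14243202) and AT2G33660 (chr2:14244699-14244770), with 1496 bases between them. Each level is therefore a value for the family and not for any 1 locus. A second aspartate consensus with the same anticodon, given to 3 loci of chloroplast, mitochondrial and nuclear origin, had no listed site. It has A, in capitals, where the nuclear sequence has C38, so a C38 site could not occur in it.
Asp(GTC) of chloroplast, mitochondrial and nuclear origin: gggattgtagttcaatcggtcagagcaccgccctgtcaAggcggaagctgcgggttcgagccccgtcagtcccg

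In wild type plants 4 of the 5 sites were methylated on nearly every molecule and C48 on fewer. In seedlings the levels were 95% at C38, 69% at C48, 97% at C49, 96% at C50 and 95% at C72. Wild type buds, given against wild type seedlings, had 96% against 95% at C38, 72% against 69% at C48 and 92% against 95% at C72. C49 and C50 had the same levels in both tissues, 97% and 96%. No site differed by more than 3 points between the tissues. C48 was the lowest of the 5 sites in each of the 5 columns with both enzymes intact.

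**Figure D1:**
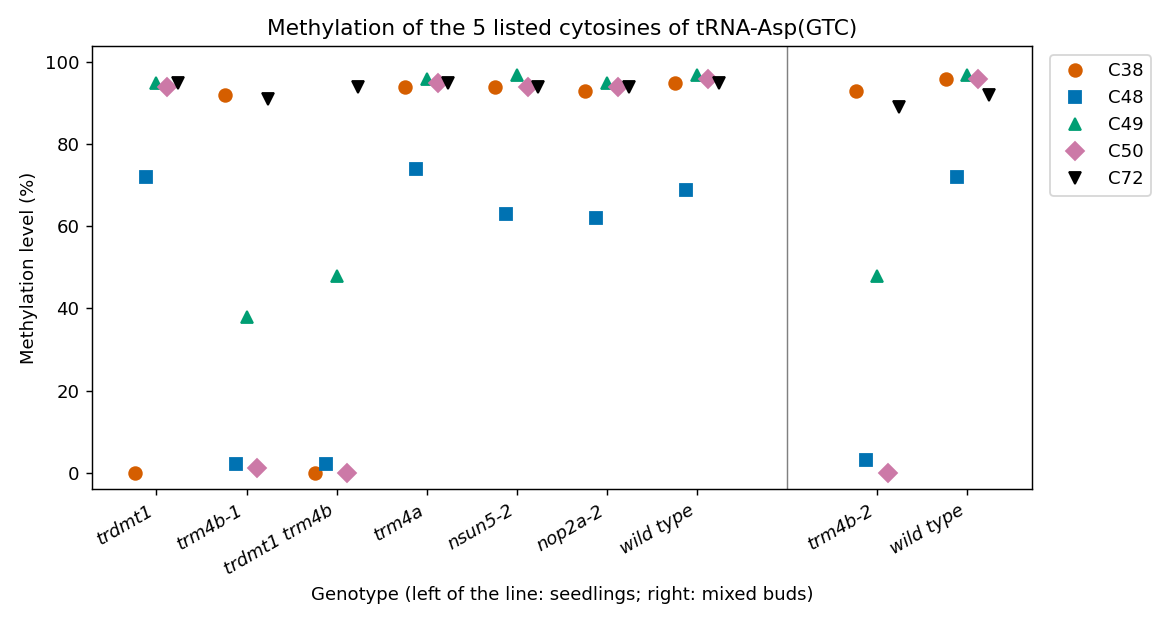
Methylation level (percent) of the 5 listed cytosines of tRNA-Asp(GTC) in each of the 9 columns, seedlings left of the line and mixed buds right of it. Each symbol is 1 library, except wild type seedlings, where it is the authors' mean of 3. C38 is at 0% in *trdmt1* and *trdmt1 trm4b*, C48 and C50 are at 3% or less in the 3 columns with a *trm4b* mutation, C49 is at 38% to 48% there, and C72 is at 89% or more in every column.

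C48 also varied most. Over the 5 columns without a mutation in *TRDMT1* or *TRM4B* it was lowest at 62% in *nop2a-2*, had a median of 69% and was highest at 74% in *trm4a*, a range of 12 points. C38 was between 93% and 96%, C49 between 95% and 97%, C50 between 94% and 96% and C72 between 92% and 95%. Those 4 sites thus stayed within 2 or 3 points, while the 20 fully measured sites of other tRNAs had ranges of 2 to 33 points with a median of 5.5. The range of C48 was not unusual for its position. Among the 8 C48 sites with a level in every column, Asp(GTC) was sixth from the narrowest, level with Lys(CTT) at 12 points, and Gly(CCC) was widest at 31 points. The part of depth in these ranges was not tested.

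**Figure D2:**
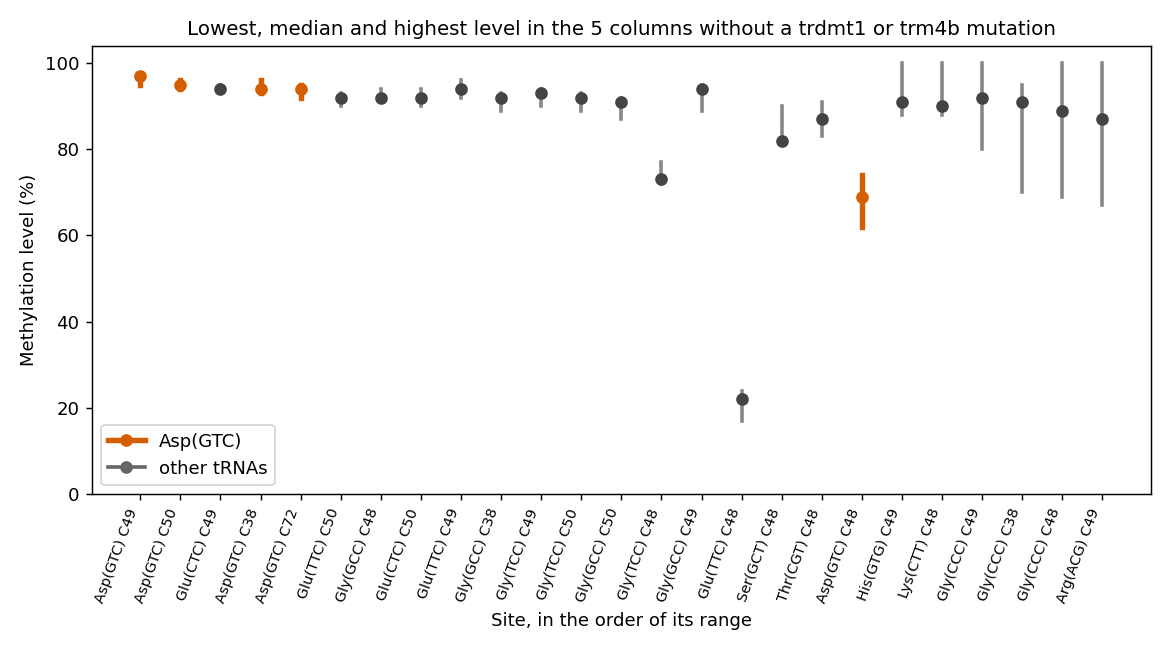
Lowest, median (point) and highest methylation level (percent) over the 5 columns without a *trdmt1* or *trm4b* mutation, for the 25 sites with a level in every column, ordered by range. Asp(GTC) C49, C50, C38 and C72 lie at the left with ranges of 2 to 3 points, and Asp(GTC) C48 lies further right with a range of 12 points and a median of 69%.

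Among tRNAs with a listed site at the same position, Asp(GTC) stood at or near the top everywhere except at C48. In wild type seedlings its C49 was second of 14 listed C49 sites (97%, against a median of 90% for the others), and its C50 was highest of 5 (96%, against 91% to 93%). Its C38 shared the highest level of 3 sites (95%, against 92% and 95%). Its C48 was thirteenth of 16, at 69% against a median of 86% for the others. In wild type buds the ranks were first of 14 for C49, first of 5 for C50, first of 3 for C38 and twelfth of 16 for C48. At C38, C49 and C50 the next site below Asp(GTC) was at most 3 points away in either tissue. That is no more than the 3 points by which the wild type tissues differed at C48 and C72 of Asp(GTC). At C38, C49 and C50 of Asp(GTC) the tissues differed by at most 1 point. Without a replicate error it cannot be told whether these first places are apart from their neighbours.

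C72 of Asp(GTC) was the only listed site at position 72, although a cytosine there is common. Of the 58 nuclear consensus sequences 50 had C at 72, and 22 of those belonged to tRNAs with at least 1 listed site somewhere. All 22 had G at position 1, as Asp(GTC) has, and so did 47 of all 50. C72 was at 95% in *trdmt1*, 91% in *trm4b-1*, 94% in *trdmt1 trm4b*, 95% in *trm4a*, 94% in *nsun5-2* and 94% in *nop2a-2*, against 95% in wild type seedlings. In buds it was at 89% in *trm4b-2* and 92% in the wild type. It was the 1 Asp(GTC) site called lost or reduced in none of the 7 mutants. Its lowest levels were 91% in *trm4b-1* and 89% in *trm4b-2*. These were 1 and 3 points under the lowest of the 5 columns with both enzymes intact. The double mutant, at 94%, was within the range of those columns. C72 is among the sites that the paper found still methylated in its *trdmt1*, *trm4b-1* and double mutants. For these sites the paper could not exclude another modification that resists bisulfite, though it favoured m5C.

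The *trdmt1* mutant asks which sites need TRDMT1. C38 was at 0% in *trdmt1*, against 95% in wild type seedlings. The 4 other sites were close to the wild type. C48 was at 72% in *trdmt1* and 69% in the wild type, C49 at 95% and 97%, C50 at 94% and 96%, and C72 at 95% in both. Each of the 4 was inside its range over the columns with both enzymes intact. Every site whose wild type level was at least 20% was sorted by a fixed rule. A level of 5% or less in the mutant was a loss, a higher level that was 20 points or more under the wild type was a reduction, and the remaining sites were retained. By this rule 1 of 5 Asp(GTC) sites was lost or reduced in *trdmt1*, beside 13.3% of the 30 sites compared over all tRNAs. That background is itself mostly C38. Of its 4 called sites, 1 was C38 of Asp(GTC) and 2 were the other C38 sites, of Gly(GCC) and Gly(CCC), both lost. The remaining called site was 1 C49 site of another tRNA.

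The anticodon arm around C38 is printed for the 3 tRNAs with a listed C38 site and for the 3 tRNAs that also have C32, A37 and C38 and a listed site elsewhere, but none at 38. Each run covers positions 27 to 43, a stem of 5 pairs around the loop of 7 bases, with C38 in capitals.
Asp(GTC): cccgcctgtcaCgcggg
Gly(GCC): gtaccctgccaCggtac
Gly(CCC): gtaccctcccaCggtac
Glu(CTC): ctcggctctcaCccgag
Glu(TTC): tctggctttcaCccagg
Val(CAC): ctagtctcacaCactag
Of the 58 nuclear consensus sequences 13 had C at position 38, and 9 of these also had C32 and A37. Sites at 38 were listed only in this group of 9, and for 3 of them. The other 4 sequences with C38 had none. The loops of Glu(CTC) and Glu(TTC) differ from that of Asp(GTC) by a single base each, G34C and G34T, given with the Asp(GTC) base first. Gly(GCC), which has a listed C38 site, also differs by 1 base (T35C), and Gly(CCC) differs by 2 (G34C and T35C). The 5 loop bases other than 34 and 35 were thus the same in all 6 tRNAs, with a listed C38 site in 3 of them. Beyond the loop, the 3 with a listed C38 site had G at position 39 facing C31, and the 3 without had C39 facing G31 (both glutamate tRNAs) or A39 facing T31 (Val(CAC)). Among all 9 sequences with C32, A37 and C38, Val(TAC) also has C31 and G39. It had no listed site at any position, so no level is known for its C38. The paper states that, beyond the 3 tRNAs with a listed C38 site, C38 was unmethylated in the tRNAs it detected, Val(AAC) among them. Whether Val(TAC) was among the detected tRNAs was not checked here. Val(TAC) therefore cannot decide whether position 39 marks the listed tRNAs. The comparison was made after the sites were known and is a description.

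The *trm4b-1* mutant asks the same of TRM4B, and here the 3 adjoining sites C48, C49 and C50 were lost or reduced while C38 and C72 were retained. C48 was at 2% in *trm4b-1* seedlings, against 69% in wild type seedlings. C50 was at 1% in *trm4b-1*, against 96% in the wild type. C49, between them, was at 38% in *trm4b-1*, against 97% in the wild type, so that it kept 39.2% of its wild type level. C38 was at 92% in *trm4b-1* and 95% in the wild type, 1 point under the lowest of the columns with both enzymes intact. Thus 3 of 5 sites were lost or reduced, 2 of them lost, beside 78.1% of the 32 sites compared over all tRNAs. All sites at C50 behaved alike: the 4 others were also lost in *trm4b-1*. At C48, 8 of the 10 other sites were lost or reduced, and at C49 10 of 11.

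The second allele, in buds, gave levels close to those of the first. In *trm4b-2* buds C48 was at 3%, against 72% in wild type buds. C50 was at 0% in *trm4b-2*, against 96% in the wild type, and C49 was at 48% against 97%, so that it kept 49.5%. C38 was at 93% in *trm4b-2* and 96% in the wild type. Again 3 of 5 sites were lost or reduced and 2 were lost, beside 62.9% of the 35 sites compared over all tRNAs. Set side by side, *trm4b-2* buds and *trm4b-1* seedlings differed by 10 points at C49 (48% and 38%) and by at most 2 points at the 4 other sites. Other C49 sites were also higher in *trm4b-2* buds than in *trm4b-1* seedlings. The levels were 48% and 32% in Glu(TTC), 75% and 62% in Gly(TCC), and 82% and 73% in Gly(GCC). C49 of Gln(CTG) went the other way, at 91% and 100%, and that of Thr(TGT) was 0% in both. Allele, tissue and experiment changed together, and their parts in these differences cannot be told apart.

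The double mutant, made from *trdmt1* and *trm4b-1*, shows the sites left when both genes are mutated. C38 and C50 were at 0% in *trdmt1 trm4b*, against 95% and 96% in wild type seedlings, and C48 was at 2%, against 69%. C49 was at 48% in the double mutant, against 97% in the wild type. C72 was at 94%, against 95%. By the rule 4 of 5 sites were lost or reduced and 3 were lost, beside 74.3% of the 35 sites compared over all tRNAs. Against *trm4b-1*, the double mutant was lower by 92 points at C38 and differed by at most 3 points at C48, C50 and C72. Its C49 was 10 points higher, 48% in the double mutant and 38% in *trm4b-1*. Against *trdmt1*, the double mutant had the same C38 (0% in both) and was lower by 70 points at C48, 47 at C49 and 94 at C50. These 10 points have no replicate behind them. They were fewer than the 12 points that C48 spanned, and more than the 2 points that C49 spanned, over the columns with both enzymes intact. A higher C49 in the double mutant than in *trm4b-1* was not particular to Asp(GTC). The levels were 42% and 32% in Glu(TTC), 81% and 73% in Gly(GCC), and 64% and 62% in Gly(TCC). They were lower in the double mutant in His(GTG) (6% and 10%) and Gln(CTG) (88% and 100%).

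In the other 3 mutants every Asp(GTC) site was retained by the rule. TRM4A is the second plant relative of TRM4. In *trm4a* 0 of 5 sites were lost or reduced, beside 3.33% of the 30 sites compared over all tRNAs. C48 was at 74% in *trm4a* and 69% in the wild type, and the 4 other sites differed by at most 1 point. In *nsun5-2* 0 of 5 were lost or reduced, beside 7.41% of 27 sites, and in *nop2a-2* 0 of 5, beside 0% of 27 sites. C48 was at 63% in *nsun5-2* and 62% in *nop2a-2*, against 69% in the wild type. The other sites were at most 2 points lower than the wild type in both.

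Summed over the 5 sites as fractions, the levels give the mean number of methylated cytosines per molecule, if all sites were read on the same molecules. The sum was 3.56 in *trdmt1*, 2.24 in *trm4b-1* and 1.44 in *trdmt1 trm4b*, against 4.52 in wild type seedlings. It was 2.33 in *trm4b-2* buds, against 4.53 in wild type buds. The differences from the wild type were -0.96 in *trdmt1*, -2.2 in *trm4b-2*, -2.28 in *trm4b-1* and -3.08 in the double mutant. The sum was 4.54 in *trm4a*, 4.42 in *nsun5-2* and 4.38 in *nop2a-2*, differences of 0.02, -0.1 and -0.14. Over the 5 columns with both enzymes intact it was between 4.38 and 4.54, and the 4 columns with a *trdmt1* or *trm4b* mutation were all below that range. No other tRNA had as many listed sites: Gly(GCC), with 4, summed to 3.69 in wild type seedlings.

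**Figure D3:**
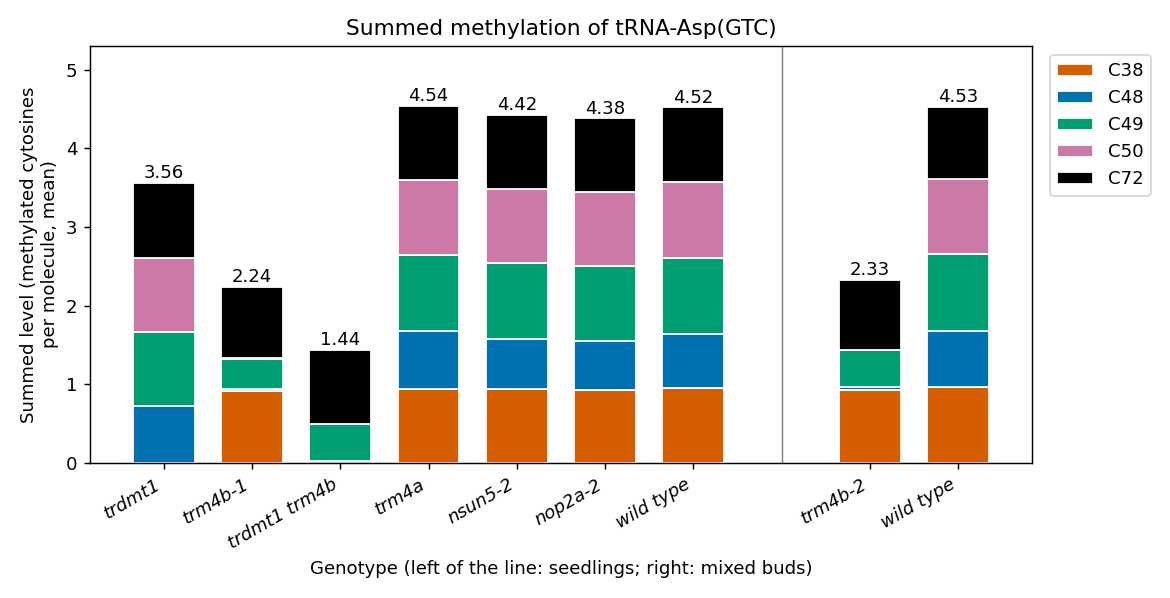
Summed methylation level of tRNA-Asp(GTC) (mean number of methylated cytosines per molecule) in the 9 columns, split by site, seedlings left of the line and mixed buds right of it. Each bar is 1 library, except wild type seedlings, which are the authors' mean of 3. The sum is 3.56 in *trdmt1*, 2.33 in *trm4b-2*, 2.24 in *trm4b-1* and 1.44 in *trdmt1 trm4b*, and between 4.38 and 4.54 elsewhere.

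Levels at single sites also bound how the marks combine on a molecule, under the same assumption. In *trm4b-1* at least 35% and at most 38% of molecules carried C49 methylation with neither C48 nor C50 methylated. In *trm4b-2* buds these bounds were 45% and 48%, and in *trdmt1 trm4b* 46% and 48%. C49 made up 92.7% of the summed level of C48, C49 and C50 in *trm4b-1* and 96% in *trdmt1 trm4b*, against 37% in wild type seedlings. In buds the share was 94.1% in *trm4b-2*, against 36.6% in the wild type. In wild type seedlings at least 62% and at most 69% of molecules carried all of C48, C49 and C50, and at least 52% and at most 69% carried all 5 marks. In *trm4b-1* and *trm4b-2* at most 1% could carry all of C48, C49 and C50. The bounds follow from the levels alone, taken as exact. The levels are rounded to whole percents, so rounding could move each bound a little. The combinations on single reads were not analysed here.

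C49 of Asp(GTC) kept more than some C49 sites and less than others, and its rank depended on which sites were counted. In *trm4b-1*, ordered from the least kept, it was seventh of 12 sites at 39.2% of the wild type level. The range was 0% for Ala(AGC), Thr(TGT) and Val(CAC) to 102% for Gln(CTG). In *trdmt1 trm4b* it was sixth of 11 at 49.5%, and in *trm4b-2* buds eighth of 14 at 49.5%. Among the 8 C49 sites with a level in every column its rank from the least kept was 4 in *trm4b-1*, 4 in *trdmt1 trm4b* and 3 in *trm4b-2*. Glu(TTC), one of its neighbours in this order, kept 34% in *trm4b-1*, 44.7% in *trdmt1 trm4b* and 50.5% in *trm4b-2*. In level Asp(GTC) and Glu(TTC) were at 38% and 32% in *trm4b-1*, 48% and 42% in *trdmt1 trm4b* and 48% each in *trm4b-2*. By the share kept they changed places in buds, so no order between them can be given. Gly(CCC), the neighbour on the other side in *trdmt1 trm4b*, was as near there, at 54.4% kept and a level of 49%. Gly(GCC), at the upper end, kept 77.7%, 86.2% and 86.3% in the same columns.

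**Figure D4:**
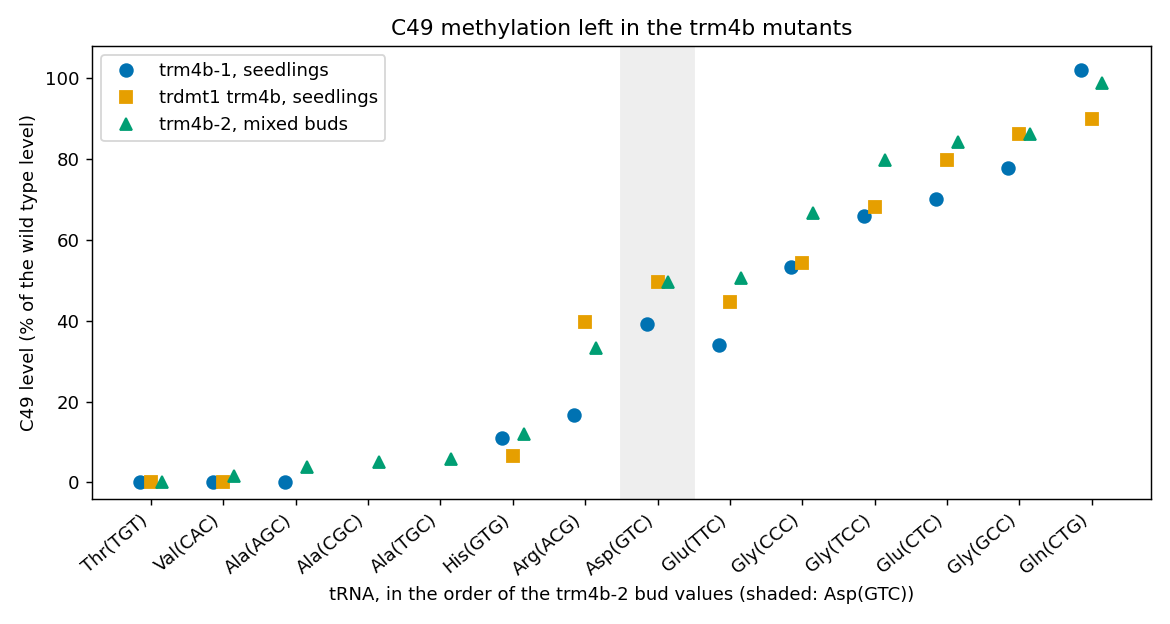
C49 level as a percent of the wild type level of the same tissue in the 3 columns with a *trm4b* mutation, for each tRNA with a listed C49 site, ordered by the *trm4b-2* bud value. Each symbol is 1 library. Asp(GTC), shaded, keeps 39.2% to 49.5%, near Glu(TTC) at 34% to 50.5%, above Arg(ACG) and His(GTG) and below the 3 glycine tRNAs, Glu(CTC) and Gln(CTG).

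The sequence at the start of the T arm was shared by tRNAs that kept different amounts of C49. Positions 48 to 65 are printed for Asp(GTC), for the other tRNAs with the same bases at 48 to 58, and for His(GTG), Val(CAC) and Gln(CTG) as examples of the low and high ends, chosen after their values were seen. Capitals mark the listed sites.
Asp(GTC): CCCgggttcgatccccgg
Glu(TTC): CCCgggttcgattcccgg
Gly(GCC): CCCgggttcgattcccgg
Gly(TCC): CCCgggttcgactcccgg
Glu(CTC): cCCgggttcgagtcccgg
His(GTG): cCtgggctcgaatcccag
Val(CAC): cCccggttcgaacccggg
Gln(CTG): CCcgagttcaattctcgg
Of the 14 tRNAs with a listed C49 site, 5 had the same 11 bases at 48 to 58 (CCCgggttcga). These 5 kept 34% to 77.7% of C49 in *trm4b-1*, 44.7% to 86.2% in *trdmt1 trm4b* and 49.5% to 86.3% in *trm4b-2*, with Asp(GTC) at or next to the low end each time. Glu(TTC) and Gly(GCC) are identical over all 18 printed bases. The C49 values of Asp(GTC) were thus not shared by all tRNAs with its bases at 48 to 58.

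Asp(GTC) belonged to the C49 sites that had another listed site at 48 or 50 in the same tRNA. In *trm4b-1* these 7 sites kept at least 34% of the wild type level, and the 5 C49 sites with no such neighbour kept at most 16.7%. In *trdmt1 trm4b* the 7 kept at least 44.7%, and the 4 measured without a neighbour kept at most 39.7% (Arg(ACG)). In *trm4b-2* buds the 7 kept at least 49.5%, the lowest being Asp(GTC) itself, and the 7 without a neighbour kept at most 33.3%. The grouping was made with these values in view and rests on which sites were listed, so it is given as a description. The groups also differed in wild type level. In wild type seedlings the 7 were at 90% to 98%, and the 5 compared in *trm4b-1* at 31% (Thr(TGT)) to 91% (His(GTG)). C49 of Arg(ACG) ranged over 33 points in the columns with both enzymes intact. The parts of wild type level and depth in the grouping were not tested. A cytosine at 48 or 50 alone did not mark the group. Val(CAC) has C at 48, 49 and 50 like Asp(GTC), with only C49 listed, and kept 0% in *trm4b-1* and 1.52% in *trm4b-2*.

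C48 was lower than C49 in all 6 tRNAs with both sites listed, in wild type seedlings and in wild type buds. In seedlings the gap in Asp(GTC) was 28 points (97% at C49 and 69% at C48). It was wider in Glu(TTC), at 71 points, and narrower in Gly(TCC), at 17, Gln(CTG), at 12, Gly(GCC), at 2, and Gly(CCC), at 1. In Asp(GTC) C49 was above C48 in all 9 columns, as it was in Glu(TTC) and Gly(TCC). In Gly(CCC) it was above in 8 of 9 columns and in Gly(GCC) in 6 of 9. In Gln(CTG) it was above in 3 of the 8 columns with both levels and equal in 3. The counts include the columns with a *trm4b* mutation, where C48 of Gly(GCC) was at 0% and its C49 at 73% to 82%. In its other columns Gly(GCC) had a gap of -2 to 2 points.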

How the data were processed

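Gel-excised tRNA was treated with bisulfite and sequenced in 11 libraries. After trimming, the authors used CLC Genomics Workbench and aligned the reads to a list of tRNA consensus sequences in which C was written as T. Near-identical tRNAs of TAIR10 (the build in the submitters' processing notes) share 1 consensus. The Workbench version was not given in the sources used here. The deposited values are percent methylation, rounded to whole percents, which the authors calculated at each cytosine by dividing the C reads by all C and T reads. A value needed 5 reads and a listed site 20%. With 5 reads, a single read moves a level by 20 points. Other modified cytosines that resist bisulfite are read as m5C.

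Genotypes were read from column names, with 0 value columns unmatched. Sites were placed on the consensus from the 3′ end (48 and above) or from the anticodon, and the base was C for 39 of 39. The anticodon was placed in 56 of 58 nuclear sequences, so counts at 38 rest on those. The RefSeq gene table (assembly TAIR10.1) gave gene types only. The call rule was tested on simulated data at set read depths. The depth behind these levels is unknown, so that test does not show how often the calls here are right. Named sites were the 5 of Asp(GTC), those at the same positions that were highest or lowest in the wild type or kept most or least, and those with the sequences compared. The members and lists were chosen with earlier results of these data known. Analyses used Python 3.11.15, numpy 2.4.6 and matplotlib 3.10.9.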

Additional observations from a re-analysis of the deposited data

How the results depend on the processing

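The count of Asp(GTC) sites lost or reduced was the same as in the report in all 28 alternatives run, which were falls of 10 or 30 points, a ratio to the wild type below 0.5, and the wild type of the other tissue, in each of 7 mutants. C49 as a percent of wild type was also the same with the wild type of the other tissue. Counts of lost sites depended on the limit for a loss. At 0% in place of 5%, 0 sites were lost in *trm4b-1* and 1 in *trm4b-2*, against 2 in each, since C48 was at 2% and C50 at 1% in *trm4b-1* and C48 at 3% in *trm4b-2*. In *trdmt1 trm4b* 2 sites were lost at the 0% limit, against 3, since C48 was at 2% there. That change was within 1.5 times. The difference in summed level depended on the sites summed, by construction. With C48, C49 and C50 alone it was -0.01 in *trdmt1* and -2.12 in *trdmt1 trm4b*. Without C48 it was -1.61 in *trm4b-1*, -2.41 in *trdmt1 trm4b* and -1.51 in *trm4b-2*. Among the 8 C49 sites with a level in every column, the rank of Asp(GTC) from the least kept was 4 in *trm4b-1*, against 7 over all C49 sites, and 3 in *trm4b-2*, against 8. The 57 other alternatives kept their value within 1.5 times for counts, percents and ranks, or within the range over the 5 columns with both enzymes intact for sums. No paired analysis was possible because each mutant had 1 library and the wild type seedlings were deposited as a mean. Leaving out a replicate was not possible for the same reason. The levels carry no depth, so neither counting error nor a detection limit is given, and a level of 0% is the rounded value as listed.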
